A study of Mus musculus with 14 samples.

Results

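The immunoproteasome and MHC class I processing genes were followed in liver RNA of Snell dwarf and wild type mice. The set was defined as all probe sets of an Affymetrix mouse array whose annotated symbol was 1 of 10 listed genes: Psmb8, Psmb9, Psmb10, Psme1, Psme2, Tap1, Tap2, Tapbp, B2m and H2-K1. It held 15 of the 12488 probe sets of the array, of which 13 rose above the filter on low signal and were tested, among 7227 tested probe sets in all. These 13 represented 9 of the 10 genes. Psme2 was measured only by probe sets annotated to it together with Psme2b, and 4 probe sets in all named a member beside other genes. They are described apart.

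Each of the 14 arrays carried RNA from the liver of 1 mouse. The Pit-1 mutant (Snell) dwarf mice comprised 4 animals of 6 months (animals 83, 85, 87 and 89) and 3 of 22 months (3, 4 and 8). Their wild type controls comprised 4 animals of 6 months (82, 84, 86 and 88) and 3 of 22 months (1, 2 and 24). Pit-1 is the pituitary transcription factor needed for growth hormone, prolactin and thyroid-stimulating hormone cells, so that the mutation acts in every tissue through missing hormones and not in the liver alone. The labels describe the dwarfs as long-lived and give no sex, strain, diet or processing batch. Values are MAS5 signals on a linear scale, and differences are on the log2 scale, dwarf minus wild type or 22 minus 6 months. A probe set passed when its adjusted p from limma was under 0.05 (Benjamini-Hochberg over all tested probe sets of a contrast). The p-values measure the spread between animals.

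The array annotation had no probe set for Pou1f1, the gene of Pit-1, and the labels were checked with Igf1, a growth hormone target. One of its probe sets read 333 to 799.9 in 6-month dwarfs against 7452 to 10811 in 6-month wild type livers, and 273 to 617 in 22-month dwarfs against 5031 to 7263 in 22-month wild type livers. Median signals ran from 167 to 221 over the arrays. The 18S ribosomal control ran from 339.8 to 4853 on the 22-month arrays, against 60.8 to 217 on the 6-month arrays other than wild type animal 88 (588). For beta-actin the 3′ probe set over the 5′ one, a sign of RNA length, gave 2.29 to 2.69 in 6-month dwarfs and 1.16 to 2.38 in 6-month wild type mice, and 1.25 to 1.57 in 22-month dwarfs and 1.52 to 1.74 in 22-month wild type mice. The hepatocyte gene Alb had a median signal of 45110 over the arrays.

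MHC class I molecules carry peptides of proteins made inside a cell to its surface, where T cells inspect them. Peptides are cut by the proteasome. Under interferon gamma its constitutive catalytic subunits are exchanged for the inducible ones, Psmb8 (LMP7), Psmb9 (LMP2) and Psmb10 (MECL-1), and the activator ring of Psme1 and Psme2 (PA28 alpha and beta) docks at its ends. The transporter made of Tap1 and Tap2 brings peptides into the endoplasmic reticulum, where tapasin (Tapbp) loads them onto a class I heavy chain such as H2-K1 paired with beta-2 microglobulin (B2m). Liver parenchymal cells, Kupffer cells and endothelial cells all hold this machinery.

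Psmb9, Tap1, Psmb8 and Tap2 are neighbours on mouse chromosome 17, in that order, between H2-DMb1 and H2-Ob. Psmb9 and Tap1 are transcribed away from each other from starts 226 bases apart, so that the RefSeq promoter windows of the genes (250 bases before to 50 after the start, build GRCm38.p6) share 275 bases. Windows were found for 9 of the 10 genes, the exception being Tap2. The window of Tap1 (chr17:34187306-34187605, plus strand) is shown because its stretch in capitals, 227 bases from the start of Psmb9 to the start of Tap1, is upstream sequence of both genes.
Tap1: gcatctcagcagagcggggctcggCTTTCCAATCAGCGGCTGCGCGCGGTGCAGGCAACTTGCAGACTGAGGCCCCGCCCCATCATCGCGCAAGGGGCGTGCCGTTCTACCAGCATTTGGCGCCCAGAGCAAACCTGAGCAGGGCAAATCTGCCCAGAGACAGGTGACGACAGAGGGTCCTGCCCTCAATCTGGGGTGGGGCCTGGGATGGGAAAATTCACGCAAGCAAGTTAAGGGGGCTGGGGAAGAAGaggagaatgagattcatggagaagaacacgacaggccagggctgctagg
Of 3 interferon or class I promoter motifs searched on both strands, the interferon-stimulated response element (GAAA, any 2 bases, GAAA) was present in the windows of B2m and Psme1, the gamma-activated site TTCNNNGAA in that of Psmb8, and the class I X2 box core TGACGC in those of H2-K1 and Psme2. Their windows hold the motif in capitals: Psmb8 (chr17:34197945-34198244, plus strand), Psme1 (chr14:55578244-55578543, plus strand, motif on the minus strand) and B2m (chr2:122147437-122147736, plus strand). They are shown as the windows of a member that passed by genotype, of the member that passed with age in both genotypes and of a member that passed by neither.
Psmb8: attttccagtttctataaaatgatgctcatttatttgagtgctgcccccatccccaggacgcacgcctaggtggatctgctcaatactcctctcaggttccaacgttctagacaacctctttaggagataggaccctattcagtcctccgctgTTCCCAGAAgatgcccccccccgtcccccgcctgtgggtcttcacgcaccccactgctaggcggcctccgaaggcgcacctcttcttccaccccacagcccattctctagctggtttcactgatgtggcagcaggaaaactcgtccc
Psme1: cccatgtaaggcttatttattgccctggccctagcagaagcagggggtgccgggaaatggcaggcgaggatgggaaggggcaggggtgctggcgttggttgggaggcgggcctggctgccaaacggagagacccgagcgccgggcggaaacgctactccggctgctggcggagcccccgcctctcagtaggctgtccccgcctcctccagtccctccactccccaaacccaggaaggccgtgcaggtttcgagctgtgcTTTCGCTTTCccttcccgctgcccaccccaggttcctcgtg
B2m: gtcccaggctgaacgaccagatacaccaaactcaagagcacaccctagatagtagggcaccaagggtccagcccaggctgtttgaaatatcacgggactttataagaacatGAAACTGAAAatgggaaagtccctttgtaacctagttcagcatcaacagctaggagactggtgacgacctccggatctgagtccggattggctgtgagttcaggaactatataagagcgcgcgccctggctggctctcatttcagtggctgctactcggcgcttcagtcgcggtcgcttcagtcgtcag
Of all 32851 mouse windows in the table, 3.44% held the response element, 8.3% the gamma-activated site and 7.4% the X2 core. Counted by gene, as the members are, the shares were 3.99%, 9.55% and 8.37% of 27025 genes. A match describes the letters of a window and is no measured binding site.

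Over both ages together, 7 of the 13 tested probe sets passed as lower in dwarf livers and 0 as higher, where 5.62% of all tested probe sets were lower and 4.65% higher (10.3% in either direction). They belonged to 6 of the 9 genes: Psmb8, Psmb9, Psmb10, Psme1, Tapbp and H2-K1. The median difference of the 9 genes, each by its probe set of highest signal, was -0.67 on the log2 scale, against 0.05 over all tested probe sets. All 9 genes had a negative difference at 6 and at 22 months, and so had 10 of the 13 probe sets, against 24% of the tested probe sets. In whole liver, fewer cells that hold a transcript and less of it per cell cannot be told apart. The count of 7 fell to 2 without the filter on low signal and to 3 with the 18S signal as a covariate or without 22-month dwarf animal 8 or wild type animal 2, and to 4 without dwarf animal 4 or wild type animal 1.

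Among the inducible catalytic subunits, Psmb8 and Psmb9 had the largest averaged differences of the set. Psmb8, the chymotrypsin-like subunit of the immunoproteasome, read 504, 1102, 463 and 256 in 6-month dwarfs against 1295, 753, 616 and 1027 in 6-month wild type mice. At 22 months it read 580.2, 489 and 397 in dwarfs against 1657, 1239 and 1177 in wild type mice. The young groups overlapped through dwarf animal 85, which stood above 3 of the 4 wild type animals, and the old groups were fully apart. The difference was -0.81 ± 0.34 (SE) at 6 months (adjusted p = 0.126) and -1.47 ± 0.39 at 22 months (adjusted p = 0.0540), and passed only as the average of both ages, -1.14 ± 0.26 (limma adjusted p = 0.00885), which is 2.20-fold lower. Of 25 alternatives that call was lost in 1, without the filter (adjusted p = 0.0507). Without animal 85 the 6-month difference was -1.18 and passed (adjusted p = 0.0118, in a range of 0.0118 to 0.333 over 26 alternatives). Without dwarf animal 89 it was -0.48 and did not pass (limma adjusted p = 0.323).

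Psmb9, which takes the place of the caspase-like subunit, read 218, 422, 69.1 and 338 in 6-month dwarfs against 461, 246, 443 and 740.4 in 6-month wild type mice. At 22 months it read 333, 316 and 245 in dwarfs against 1052, 791 and 656 in wild type mice. Dwarf animal 87 was lowest of all 14, and again the groups overlapped at 6 months and not at 22. The averaged difference, -1.25 ± 0.34 (limma adjusted p = 0.0269), was the largest among the members, at 2.38-fold lower. It was lost in 6 of 25 alternatives, those without the filter, with the 18S covariate, and without wild type animals 1 or 2 or dwarf animals 4 or 8 (adjusted p up to 0.106). Neither age passed alone, at -1.03 ± 0.44 (adjusted p = 0.139) for 6 months and -1.47 ± 0.51 (adjusted p = 0.172) for 22 months. Without dwarf animal 87 the 6-month difference was -0.48.

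Psmb10, the third inducible subunit, read 983, 1110, 525 and 601 in 6-month dwarfs against 983, 820.4, 837 and 842 in 6-month wild type mice. At 22 months it read 727, 743 and 419 in dwarfs against 1464, 1249 and 1384 in wild type mice. Young dwarfs lay on both sides of the wild type animals, whereas every old dwarf lay below every wild type animal of either age. Psmb10 was the 1 member probe set of 13 that passed at 22 months (-1.16 ± 0.27, limma adjusted p = 0.0249, 2.24-fold lower), where 2.93% of tested probe sets passed (1.56% lower). Its 6-month difference was -0.18 ± 0.23 (adjusted p = 0.635). The average over ages, -0.67 ± 0.18 (adjusted p = 0.0227), was lost in 3 of 25 alternatives, those without the filter, wild type animal 1 or dwarf animal 8. The 22-month call was lost without dwarf animal 8, without any 1 of the 3 wild type animals and without the filter on low signal (adjusted p up to 0.115, lowest value 0.00875 over 26 alternatives).

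**Figure D1:**
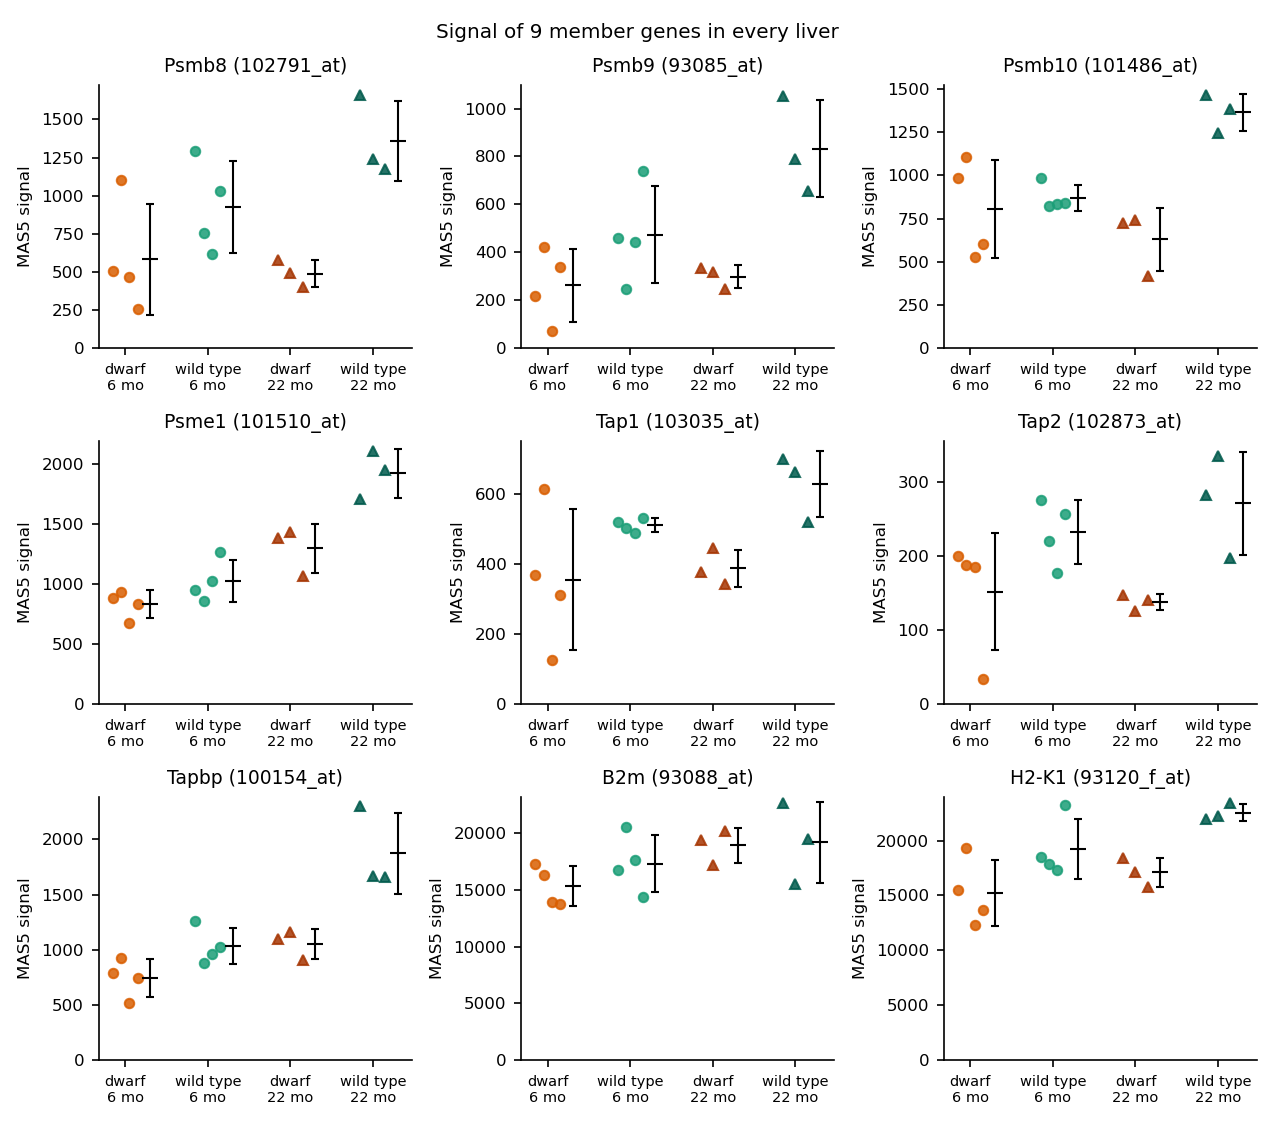
MAS5 signal (vertical axes, linear, from 0) of 9 member genes, 1 panel a gene with its probe set of highest signal; each point is 1 liver (circles 6 months, triangles 22 months, orange dwarf, green wild type) and the black bars give mean ± SD (n = 4 at 6 months, 3 at 22 months). In 8 of the 9 panels, all but B2m, the 3 dwarfs of 22 months lie below the 3 wild type mice of that age, while the 6-month groups overlap in every panel.

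The activator subunit Psme1 was lower in dwarfs by a smaller amount. It read 886, 935, 673 and 837 in 6-month dwarfs against 947, 856, 1020.3 and 1266 in 6-month wild type mice, and 1384, 1436 and 1065 in 22-month dwarfs against 1705, 2105 and 1949 in 22-month wild type mice. The old groups did not overlap. The averaged difference was -0.43 ± 0.12 (limma adjusted p = 0.0301, 1.35-fold lower), with -0.29 ± 0.16 at 6 months and -0.57 ± 0.18 at 22 months, neither passing. The averaged call was lost in 6 of 25 alternatives, those without the filter, with the 18S covariate, and without wild type animals 2 or 24 or dwarf animals 8 or 87 (adjusted p up to 0.0845). A further Psme1 probe set, 161293_r_at, was not tested, since it lay at the floor of 54.9 on 7 of 14 arrays. The partner subunit Psme2 shared its tested probe set, 100588_at, with Psme2b. It averaged 1004 ± 86.3 in 6-month dwarfs and 1096 ± 166 in 6-month wild type mice (SD, n = 4 each), and 1125 ± 37.4 in 22-month dwarfs and 1279 ± 43.2 in 22-month wild type mice (SD, n = 3 each). Its old groups did not overlap, but the averaged difference of -0.15 ± 0.10 did not pass (limma adjusted p = 0.382).

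The peptide transporter genes had lower means in dwarfs and did not pass. Tap1 (103035_at) read 369.6, 616, 126 and 311 in 6-month dwarfs against 522, 503, 490.2 and 533 in 6-month wild type mice. At 22 months it read 377, 445 and 342 in dwarfs against 703, 663 and 522 in wild type mice. The young wild type animals lay close together, and the young dwarfs were spread from the lowest to the third highest value of all arrays. The averaged difference was -0.72 ± 0.25 (limma adjusted p = 0.0864). Without dwarf animal 85 it was -0.88 and passed (adjusted p = 0.0138, range 0.0138 to 0.212 over 25 alternatives). Without dwarf animal 87 it was -0.50 and did not pass (limma adjusted p = 0.0603). The other Tap1 probe set, 162278_r_at, gave 172 to 251 in 6-month dwarfs against 136 to 244 in 6-month wild type mice, with an averaged difference of 0.20 ± 0.19, so that the Tap1 probe sets disagreed in sign.

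Tap2, its partner, read 200.2, 187, 185 and 33.2 in 6-month dwarfs against 275, 219, 177 and 257 in 6-month wild type mice. At 22 months it read 147, 126 and 141 in dwarfs against 282, 334 and 197 in wild type mice. Tap2 was near the filter of 184.8, and dwarf animal 89 fell below the floor. The old groups did not overlap. The averaged difference was -0.83 ± 0.28 (limma adjusted p = 0.0726).

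Tapbp, the loading chaperone, had the smallest adjusted p of the set in the averaged contrast. Its probe set of highest signal, 100154_at, read 786, 928, 516 and 748 in 6-month dwarfs against 1257, 875, 962 and 1025 in 6-month wild type mice. At 22 months it read 1098, 1163 and 903 in dwarfs against 2299, 1668 and 1657 in wild type mice. In the young groups only dwarf animal 85 stood above a wild type animal, and the old groups did not overlap. The averaged difference was -0.65 ± 0.14 (limma adjusted p = 0.00637, 1.57-fold lower), and it passed under all 25 alternatives (adjusted p 0.00365 to 0.0231). At 22 months alone the difference was -0.82 ± 0.21 (adjusted p = 0.0507) and at 6 months -0.49 ± 0.19 (adjusted p = 0.0947). The other Tapbp probe sets did not follow: 102689_at averaged 549 ± 111 in 6-month dwarfs and 561 ± 160 in 6-month wild type mice (SD, n = 4 each), and 749 ± 45.6 in 22-month dwarfs and 716 ± 57.9 in 22-month wild type mice (SD, n = 3 each). For 162104_f_at the averaged difference was -0.04 ± 0.13.

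H2-K1, the class I heavy chain, was measured by tested probe sets whose suffix marks a family of transcripts, so that other class I genes may add to both. Probe set 97125_f_at read 1807, 1879, 1703 and 1706 in 6-month dwarfs against 2768, 2036, 2154 and 2795 in 6-month wild type mice. It read 2559, 2536 and 2589 in 22-month dwarfs against 3104, 3690.2 and 2812 in 22-month wild type mice. The genotypes did not overlap at either age. It was the 1 member probe set that passed at 6 months (-0.45 ± 0.13, limma adjusted p = 0.0337, 1.36-fold lower), where 13.3% of all tested probe sets passed (6.95% lower), so that 1 of 13 is a share near that of the array. The call was lost in 10 of 26 alternatives, among them those without dwarf animals 87 or 89 or wild type animals 82 or 88 (highest adjusted p = 0.120). The brighter probe set, 93120_f_at, averaged 15200 ± 3028 in 6-month dwarfs and 19230 ± 2696 in 6-month wild type mice (SD, n = 4 each), and 17090 ± 1339 in 22-month dwarfs and 22540 ± 794 in 22-month wild type mice (SD, n = 3 each). Averaged over ages, the differences of the H2-K1 probe sets were -0.38 ± 0.11 for 93120_f_at (adjusted p = 0.0337) and -0.38 ± 0.10 for 97125_f_at (adjusted p = 0.0220). The call was lost in 11 of 25 alternatives for 93120_f_at (adjusted p up to 0.0819), among them those without any 1 of the 22-month wild type animals, dwarf animals 4, 8, 87 or 89 or wild type animal 88. For 97125_f_at it was lost in 4 of 25 (up to 0.0726), those with the 18S covariate or without wild type animal 2 or dwarf animals 3 or 4. A further H2-K1 probe set, 97700_at, was below the filter.

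B2m, the invariant light chain, had the smallest averaged difference of the 9 genes. It read 17294, 16270.1, 13889 and 13788 in 6-month dwarfs against 16726, 20520.0, 17592 and 14375 in 6-month wild type mice, and 19348, 17174 and 20198 in 22-month dwarfs against 22617, 15473 and 19455 in 22-month wild type mice. The genotypes overlapped at both ages. The averaged difference was -0.09 ± 0.11 (limma adjusted p = 0.667). A p of this size does not show that the level was equal.

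**Figure D2:**
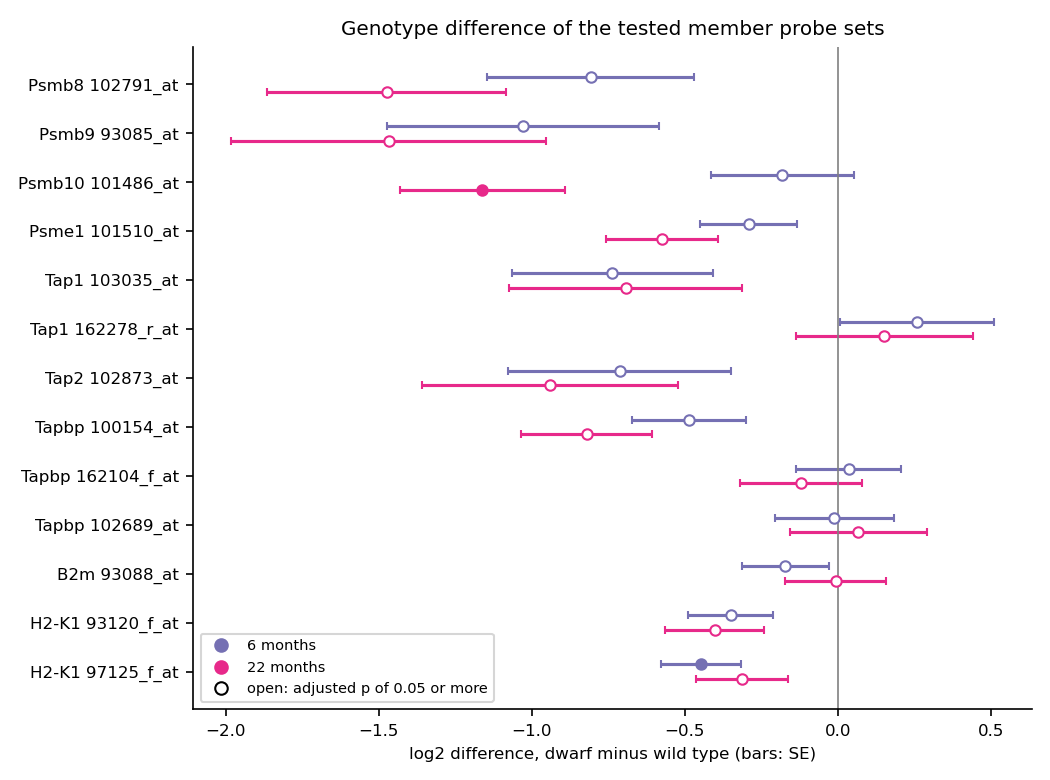
Log2 difference (horizontal axis, dwarf minus wild type) of the 13 tested member probe sets at 6 months (purple) and 22 months (pink), with bars of 1 SE from limma; filled points had an adjusted p under 0.05. Only Psmb10 at 22 months and H2-K1 97125_f_at at 6 months are filled, and Tap1 162278_r_at is the one probe set above 0 at both ages.

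At 22 months the separation of the groups was wider than the number of calls. In 9 of the 13 probe sets, of 8 of the 9 genes, every dwarf lay below every wild type animal, against 11.5% of all tested probe sets. At 6 months this held for 1 of 13, against 7.8%. The median difference of the 9 genes was -0.82 at 22 months, against 0.01 over all tested probe sets, and -0.49 at 6 months, against 0.10. At an unadjusted p under 0.05, 7 of 13 were lower at 22 months, against 6.61%, and 6 of 13 at 6 months, against 12.5%. The difference between the ages was itself tested as the interaction: 0 of 13 probe sets passed with limma, against 2.19% of all tested. At an unadjusted p under 0.05 there was 1, Psmb10, lower (-0.98 ± 0.36, adjusted p = 0.206), against 7.8% of all tested probe sets.

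Animals of the 6-month dwarf group differed among themselves in most members. With each of the 9 genes centred and scaled over the arrays, their mean was -0.40, 0.17, -1.60 and -1.25 SD units for dwarf animals 83, 85, 87 and 89. It was 0.32, -0.02, -0.07 and 0.34 for the 6-month wild type animals 82, 84, 86 and 88. In 22-month mice it was -0.04, -0.18 and -0.58 for dwarf animals 3, 4 and 8 and 1.39, 0.97 and 0.94 for wild type animals 1, 2 and 24. Dwarf animal 85 thus stood within the range of the young wild type mice, and the old wild type mice were the highest of all.

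The catalytic exchange was described by the log2 signal of each inducible subunit minus that of its constitutive counterpart on the same array. Probe sets differ in their response, so the size of such a value has no meaning of its own and only its change between groups is read. At 22 months Psmb9 minus Psmb6 was -2.19, -2.13 and -2.70 in dwarfs against -0.25, -1.07 and -1.09 in wild type mice. Psmb10 minus Psmb7 was -1.30, -0.97 and -1.77 in dwarfs against -0.13, 0.12 and 0.36 in wild type mice. For Psmb8 minus Psmb5 the mean was -1.89 ± 0.24 in dwarfs and -0.33 ± 0.38 in wild type mice with probe set 101558_s_at of Psmb5 (SD, n = 3 each), and -0.69 ± 0.55 in dwarfs and 0.70 ± 0.22 in wild type mice with 160559_at. All 4 pairings were lower in every old dwarf than in every old wild type animal, by -1.39 to -1.57. At 6 months all 4 overlapped, with mean differences of -1.01 to 0.00. For Psmb8 minus Psmb5 the 6-month difference was -0.12 with 101558_s_at and -1.01 with 160559_at, so it depended on the Psmb5 probe set. These are descriptions with no test, and they draw on the same inducible values as above. The constitutive counterparts themselves gave 0 of 4 probe sets passing at 22 months with limma (differences -0.08 to 0.30), and at 6 months 1 lower, Psmb5 101558_s_at (-0.68 ± 0.17, adjusted p = 0.0133). The other Psmb5 probe set, 160559_at, stood at 0.21 ± 0.16 at 6 months without passing (limma adjusted p = 0.421). The Psmb5 probe sets thus disagreed in sign at that age. Of all tested probe sets, 13.3% passed at 6 months and 2.93% at 22 months.

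**Figure D3:**
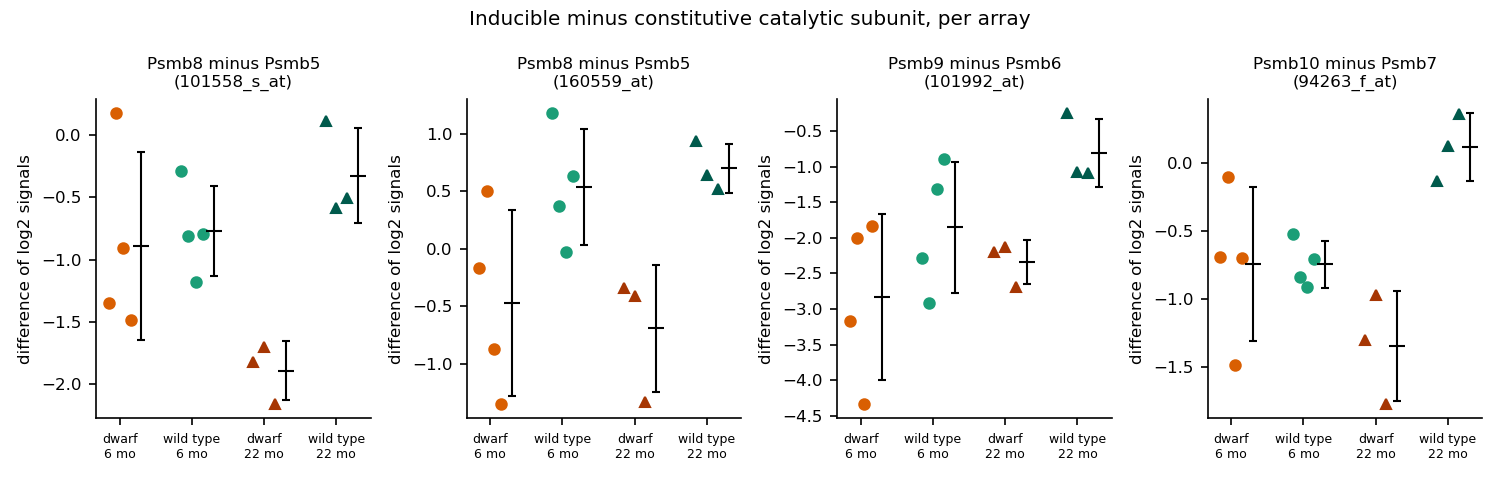
Log2 signal of an inducible proteasome subunit minus that of its constitutive counterpart (vertical axes), 1 panel a pairing and 1 point a liver, with mean ± SD beside each group (n = 4 at 6 months, 3 at 22 months). In all 4 panels the 22-month dwarfs (dark orange triangles) lie below the 22-month wild type mice (dark green triangles), and the 6-month circles overlap.

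Of 13 probe sets of the constitutive 20S genes, 2 passed as lower and 1 as higher in 6-month dwarfs, where 13.3% of the array passed. At 22 months 0 passed, where 2.93% of the array did, with a median of -0.05. The named ones at 6 months were Psma4 (-0.56 ± 0.14, adjusted p = 0.0174), Psma5 (-0.56 ± 0.15, adjusted p = 0.0243) and Psmb4 98556_at (1.02 ± 0.30, adjusted p = 0.0355), whose other probe set 98557_f_at was at -0.46. Of 5 genes of proteasome assembly and other activators, Psme4 was lower at 6 months (-0.69 ± 0.21, adjusted p = 0.0380) and 0 passed at 22 months. Pomp, the chaperone that matures the 20S particle, was at -0.46 ± 0.22 at 6 months and -0.26 ± 0.26 at 22 months, without passing.

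Other class I and peptide-loading genes were lower in young dwarfs in 7 of 21 probe sets, with 0 higher, and 0 passed at 22 months. Of all tested probe sets 6.95% were lower at 6 months and 2.93% passed at 22 months, so that 0 of 21 is near the share of the array. The median of the list was -0.23 at 6 months and -0.21 at 22 months. Among those with the smallest p at 6 months were Hfe, a class I-like regulator of iron uptake (-1.22 ± 0.19, adjusted p = 0.000368), and the classical heavy chain H2-D1 (97541_f_at, -0.70 ± 0.13, adjusted p = 0.00263). Another H2-D1 probe set, 101886_f_at, passed at neither age alone. It was at -0.50 ± 0.18 at 6 months (limma adjusted p = 0.0827) and -0.42 ± 0.21 at 22 months (limma adjusted p = 0.436). The suffix of both marks a family of transcripts, so that other class I genes may add to them. Pdia3, the disulphide isomerase of the peptide-loading complex, read 711, 594.2, 418 and 538 in 6-month dwarfs against 1528, 1335, 1449 and 652 in 6-month wild type mice (-1.09 ± 0.25, adjusted p = 0.0102). Ide, a peptidase, was lower with 2 of its 3 probe sets, at -2.01 ± 0.27 with 94380_at (adjusted p = 0.000134), which lay near the floor in young dwarfs, and at -0.63 ± 0.18 with 160290_at (adjusted p = 0.0293). The other, 162160_at, stood at 0.57 without passing. At 22 months H2-D1 97541_f_at read 3711, 3937 and 3921 in dwarfs against 6122, 5641 and 5127 in wild type mice, without overlap (-0.54 ± 0.15, adjusted p = 0.0771). A probe set annotated to 10 class I genes including H2-K1, 102161_f_at, averaged 4024 ± 514 in 6-month dwarfs and 6113 ± 3126 in 6-month wild type mice, among which animal 88 read 10724. It averaged 8784 ± 229 in 22-month dwarfs and 12620 ± 1285 in 22-month wild type mice.

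Of the interferon gamma pathway, 4 of 14 probe sets passed as lower over both ages, 3 at 6 months and 0 at 22 months. Of all tested probe sets, 5.62% were lower over both ages, 6.95% at 6 months and 1.56% at 22 months. The 4 belonged to the interferon-inducible GTPases, which act in defence against pathogens inside cells. Iigp1 (96764_at) read 791, 4384, 739.7 and 1164 in 6-month dwarfs against 3897, 4429.7, 4836 and 7177 in 6-month wild type mice, and 4249, 2827 and 3075 in 22-month dwarfs against 9646, 7733 and 7284 in 22-month wild type mice. Animal 85 again stood apart from the other young dwarfs, and the old groups did not overlap. The averaged differences were -1.60 ± 0.31 for this probe set (adjusted p = 0.00296), -1.60 ± 0.28 for Iigp1 103963_f_at (adjusted p = 0.00119), -1.36 ± 0.29 for Igtp (adjusted p = 0.00525) and -0.62 ± 0.16 for Irgm1 (adjusted p = 0.02003). Of the genes upstream, Irf1, Irf9 and the receptor chain Ifngr1, added after their values were seen, did not pass in any genotype contrast. On average over the ages Irf1 was at -0.40 ± 0.18, Irf9 at -0.35 ± 0.15 and Ifngr1 at 0.09 ± 0.16. The summed signal of the list was 7356 to 9741 in 22-month dwarfs against 14850 to 20400 in 22-month wild type mice, and 4933 to 11960 in 6-month dwarfs against 11650 to 12810 in 6-month wild type mice. Such a sum weighs bright probe sets most and includes the Iigp1 values above, so it is no separate result. The median genotype difference of the 14 probe sets was -0.53 at 22 months and -0.25 at 6 months.

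Markers of other liver cells moved with the 22-month difference in part. Of all tested probe sets, 13.3% passed at 6 months (6.95% lower) and 2.93% at 22 months (1.56% lower). Of 8 probe sets of macrophage and Kupffer cell genes, 1 passed as lower at 22 months, Clec4f (-1.16 ± 0.26, adjusted p = 0.0196), with the complement gene C1qa at -0.93 ± 0.27 (adjusted p = 0.0874). The median of the list was -0.48. Its summed signal was 3676 to 4239 in 22-month dwarfs against 5105 to 7639 in 22-month wild type mice. At 6 months 0 of 8 passed, and the sums overlapped, at 4448 to 5320 in dwarfs and 3767 to 6182 in wild type mice. Of the same list, Marco was at the floor on all 14 arrays and Clec4f on 0. Their part in the members' difference was not tested.

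Class II genes of antigen-presenting cells ran against the members at 6 months, where 3 of 6 were higher in dwarfs, with sums of 3448 to 6963 against 1937 to 3468 in wild type mice. At 22 months 0 of 6 passed, with sums of 3486 to 4202 in dwarfs against 4810 to 8660 in wild type mice. Leukocyte genes summed to 1568 to 2258 in 6-month dwarfs against 999 to 1590 in wild type mice, and to 1267 to 1690 in 22-month dwarfs against 1820 to 2252 in wild type mice. Of T and NK cell genes, 2 of 5 tested probe sets were lower at each age, both of Zap70. Cd8a lay at the floor on all 14 arrays and the Cd3d probe set 92683_at on 13. Of B and plasma cell genes 2 of 5 and of endothelial genes 3 of 5 were higher in young dwarfs, and 0 of either at 22 months. Neutrophil markers gave 0 of 2 at either age. Hepatocyte genes gave 4 higher and 1 lower of 8 at 6 months and 0 at 22 months. All these counts stand beside 13.3% of all tested probe sets passing at 6 months and 2.93% at 22 months. The part of these cell types in the members' difference was not tested.

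With age, the members' medians were positive in both genotypes. In dwarf mice the median difference of the 9 genes between 22 and 6 months was 0.31, against -0.09 over all tested probe sets. In wild type mice it was 0.60, against -0.02. In dwarfs 2 of 13 probe sets passed as higher, where 16.5% of all tested probe sets passed (7.94% higher). In wild type mice 2 of 13 passed as higher, where 2.49% passed (1.45% higher). Psme1 passed in both, at 0.64 ± 0.17 in dwarfs (adjusted p = 0.0209, 1.55-fold) and 0.92 ± 0.17 in wild type mice (adjusted p = 0.0117, 1.89-fold). In each genotype every 22-month animal stood above every 6-month animal. H2-K1 97125_f_at passed in dwarfs (0.53 ± 0.14, adjusted p = 0.01999) and stood at 0.40 ± 0.14 in wild type mice (adjusted p = 0.151). Tapbp 100154_at passed in wild type mice (0.86 ± 0.20, adjusted p = 0.0352) and stood at 0.53 ± 0.20 in dwarfs (adjusted p = 0.0823). The wild type call was lost in 12 of 26 alternatives (limma adjusted p up to 0.181). The other Tapbp probe sets did not pass and disagreed in sign. For 162104_f_at the age difference was -0.25 ± 0.19 in wild type mice and -0.41 ± 0.19 in dwarfs. For 102689_at it was 0.39 ± 0.21 in wild type mice and 0.47 ± 0.21 in dwarfs.

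The inducible catalytic subunits did not pass with age in either genotype. Psmb8 was at -0.07 ± 0.37 in dwarfs and 0.60 ± 0.37 in wild type mice, Psmb9 at 0.46 ± 0.48 in dwarfs and 0.90 ± 0.48 in wild type mice, and Psmb10 at -0.33 ± 0.25 in dwarfs and 0.65 ± 0.25 in wild type mice. For Psmb10 the wild type groups did not overlap by age. The probe set of 10 class I genes passed in both, at 1.13 ± 0.25 in dwarfs (adjusted p = 0.00782) and 1.16 ± 0.25 in wild type mice (adjusted p = 0.0249). In the list of other class I and peptide-loading genes, 8 of 21 probe sets were higher and 1 lower with age in dwarfs. Of all tested probe sets 16.5% passed with age in dwarfs (7.94% higher) and 2.49% in wild type mice (1.45% higher). The list of other class I and peptide-loading genes also holds genes that are not class I chains. Of these, H2-Ke6 was among the higher (0.84 ± 0.20, limma adjusted p = 0.0112). The lower one was the peptidase Ide (162160_at, -0.94 ± 0.27, limma adjusted p = 0.0298). In wild type mice 1 was higher. That one, H2-Q4 99378_f_at, was at 1.57 ± 0.34 in dwarfs (adjusted p = 0.00764) and 1.35 ± 0.34 in wild type mice (adjusted p = 0.0469). Of the interferon gamma pathway 2 of 14 were higher with age in dwarfs, Ifngr2 (1.04 ± 0.23) and Iigp1 96764_at (1.34 ± 0.44), and 0 in wild type mice.

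Markers of other cells moved with age as well. Of all tested probe sets, 16.5% passed with age in dwarfs and 2.49% in wild type mice. In dwarfs, hepatocyte genes were lower at 22 months in 3 of 8 probe sets (median -0.44), and class II genes in 1 of 6 (median -0.34), with 0 of 5 leukocyte probe sets passing (median -0.22). In wild type mice, class II genes were higher at 22 months in 3 of 6 (median 1.16) and leukocyte genes in 1 of 5 (median 0.69), with 0 of 8 macrophage and Kupffer cell probe sets passing (median 0.27). The part of these cells in the members' age differences was not tested.

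The age contrasts coincide with the differences in 18S signal and in the 3′ to 5′ ratio given above. With the 18S signal as a covariate 0 member probe sets passed with age in either genotype. Calls over the whole array fell alike, to 110 of 7227 in dwarfs (1193 without the covariate) and 9 in wild type mice (180 without it), so that nothing about the members is read from the 0. Psme1 was then at 0.49 in dwarfs (adjusted p = 0.222) and 0.75 in wild type mice (adjusted p = 0.224), both smaller than without the covariate. Tapbp 100154_at was at 0.67 in dwarfs (adjusted p = 0.167) and 1.02 in wild type mice (adjusted p = 0.181), both larger. With the 3′ to 5′ ratio as a covariate 0 members passed in dwarfs, among 51 calls on the array, and 1 in wild type mice, among 128. Psme1 was at 0.46 in dwarfs and 0.86 in wild type mice, and Tapbp 100154_at at 0.55 in dwarfs and 0.87 in wild type mice. The age calls also depended on single animals: leaving out 22-month dwarf animal 3 or 4 left 0 in dwarfs, and leaving out wild type animal 2 left 0 in wild type mice.

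**Figure D4:**
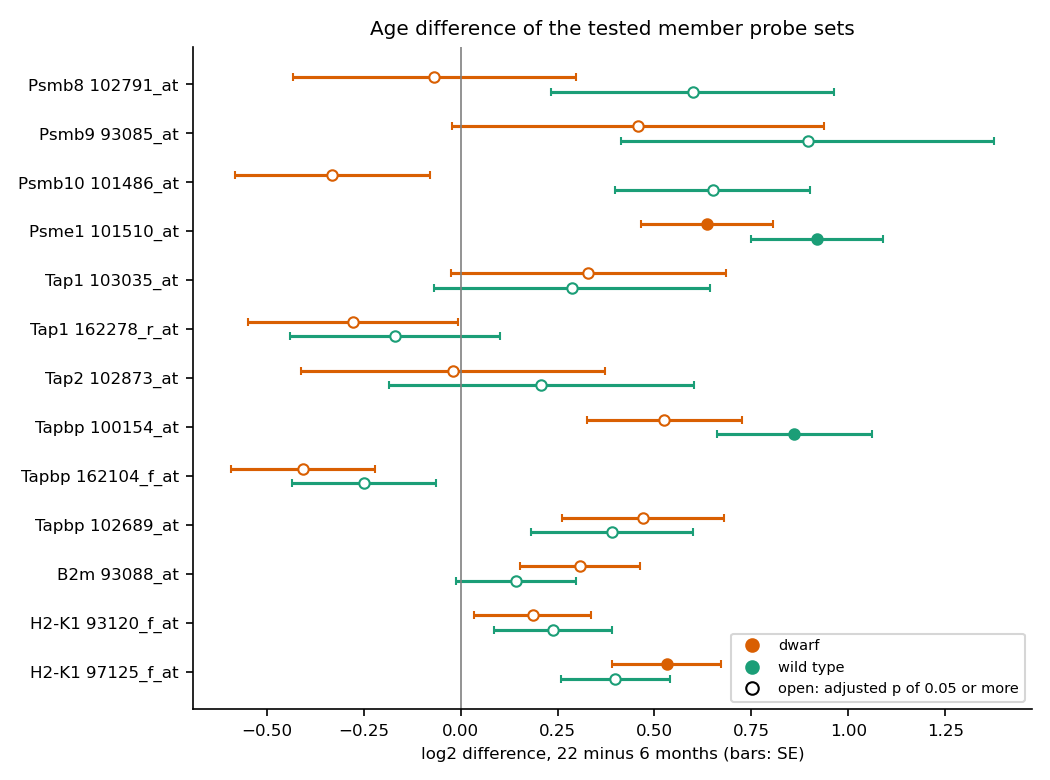
Log2 difference (horizontal axis, 22 minus 6 months) of the 13 tested member probe sets in dwarf (orange) and wild type mice (green), with bars of 1 SE from limma; filled points had an adjusted p under 0.05. Psme1 is filled in both genotypes, H2-K1 97125_f_at in dwarfs and Tapbp 100154_at in wild type mice.

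The members varied together from liver to liver. Over the 36 pairs of the 9 genes, the correlation of log2 signals over the 14 arrays had a median of 0.69 and ran from 0.25 (Tap2 with B2m) to 0.89 (Psmb9 with Tap1). All points share the groups and the scaling of their arrays, and with the group means taken away the median was 0.51. Psmb9 and Tap1, the pair with the shared upstream stretch printed above, remained at 0.83 with the group means removed. Dwarf animal 87 was lowest for both, at 69.1 and 126. Without it the correlation over arrays, with group means kept, was 0.77 over 13 arrays, against 0.89 over all 14. The value with group means removed was not computed without that animal. Pairs with no such shared stretch came near 0.83 with the group means removed, such as Tap1 with Tapbp (0.80) and Psmb9 with Tapbp (0.80). Tapbp and H2-K1 followed the mean of the other members most closely (0.91 and 0.92) and B2m least (0.40). Genes outside the set that were most like the members' mean, among 6458 other probe sets with 1 symbol, were Uba7, the activating enzyme of the ubiquitin-like Isg15 (0.94), the interferon-induced Ifi27 (0.92), the mannose-binding lectin Mbl2 (0.91), H2-D1 97541_f_at (0.90) and Igtp (0.89). These correlations describe 14 arrays and were not tested.

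**Figure D5:**
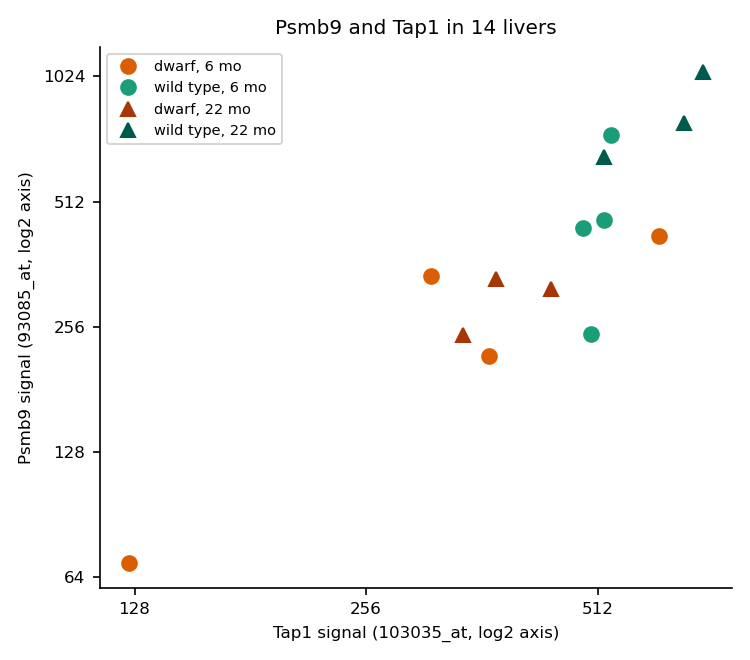
Signal of Psmb9 (vertical axis) against Tap1 (horizontal axis), both log2 axes, 1 point a liver (circles 6 months, triangles 22 months, orange dwarf, green wild type, n = 14). The points run along a rising line with a correlation of 0.89, with dwarf animal 87 alone at the lower left and the 3 wild type mice of 22 months among the 4 highest for Psmb9.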

How the data were processed

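Liver RNA of 14 mice was measured on 1 array each. The deposited values are signal intensity on a linear scale, which the authors computed with the MAS5 algorithm, per the submitters' processing notes (version not given in the sources used here). They were used as deposited, since the 2% trimmed mean was 500.4 on each array. Values under the pooled 25th percentile (54.9) were set to it. A probe set was tested when it passed the pooled median (184.8) on at least 3 arrays, and 66 control probe sets were left out. One mean per group of log2 signal was fitted over the 14 arrays, using R 4.3.3 and limma 3.58.1 with a trended eBayes prior, and the Benjamini-Hochberg adjustment was made over the tested probe sets of each contrast. The fit was tested on simulated data. Groups came from the sample titles. The number of arrays limits the precision.

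Genes were named from the platform annotation, in which 10855 probe sets had 1 symbol, 396 several and 1237 none. Named are all member probe sets, up to 4 genes of each further list by smallest p in a contrast, and the 5 genes most like the members. Irf1, Irf9, Ifngr1, Pomp and the second probe set of a named gene were added after their values were seen. Members and lists were chosen with earlier results of these data known. Alternatives covered normalization, floor, filter, variance model, covariates and leaving out each animal. Promoter windows were RefSeq's, build GRCm38.p6.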

Additional observations from a re-analysis of the deposited data

Results flagged for a closer look

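In groups of 4 animals, the highest or lowest value was set against the gap to its neighbour and compared with the 95% critical value of Dixon's ratio. Of 30 groups checked over 15 probe sets, 3 held such a value, and chance gives about 1 in 20. Psmb10 read 982.5 in 6-month wild type animal 82, above the other 3 of its group. Tap2 read 33.2 in 6-month dwarf animal 89, below the other 3 of its group, and entered the check at the floor of 54.9. Tapbp 162104_f_at read 621.8 in 6-month wild type animal 88, below the other 3 of its group.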

How the results depend on the processing

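Each count of member probe sets was recomputed under 12 or 11 other settings and without each animal in turn. At 6 months, where 1 of 13 was lower in dwarfs, leaving out 1 animal gave 0 to 4 (4 without dwarf animal 85; 0 without wild type animals 82 or 88 or dwarf animals 87 or 89). Quantile normalization, no variance trend, array weights, the compared groups alone, and the 18S or the 3′ to 5′ covariate gave 0, and scaling to a common median 3. At 22 months, where 1 was lower, leaving out 1 animal gave 0 to 3, with 0 without wild type animals 1, 2 or 24 or dwarf animal 8. No filter gave 0; a pseudocount in place of the floor, robust variances and the 3′ to 5′ covariate gave 2; a filter at the 75th percentile and the 18S covariate gave 3; array weights and the compared groups alone gave 4.

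With age in dwarfs, where 2 were higher, the range without 1 animal was 0 to 3, the 18S and 3′ to 5′ covariates gave 0 and a common median 5. With age in wild type mice, where 2 were higher, the range was 0 to 2; the 18S covariate gave 0, and quantile normalization, a common median, no filter, no trend, the compared groups alone and the 3′ to 5′ covariate gave 1. Averaged over ages, where 7 were lower, the range was 3 to 8, with 2 without the filter and 3 with the 18S covariate. The interaction gave 0 under every setting run. Single differences were recomputed in this way only for the 32 with an unadjusted p under 0.05 in the main fit. Of these, 1 changed sign: Tapbp 102689_at with age in dwarfs, 0.47, was -0.073 with the 3′ to 5′ covariate. Differences chosen for a small p seldom change sign, so this count does not measure how stable the members were. The cause of these changes was not tested.

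No paired analysis was run, since the labels do not state whether any animals were matched between groups.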

Other observations

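At each age the largest genotype difference among the cell type markers was that of a probe set of Zap70, a kinase of T cell receptor signalling. This probe set, 93662_s_at, read 74.2 to 140.2 in 6-month dwarfs against 878 to 1708 in 6-month wild type mice, and 55.0 to 117 in 22-month dwarfs against 1049 to 1298 in 22-month wild type mice. The differences were -3.49 ± 0.27 at 6 months (limma adjusted p = 3.66e-07) and -4.00 ± 0.31 at 22 months (adjusted p = 1.13e-06). Probe set 93661_at was also lower at both ages, at -1.89 ± 0.33 and -1.66 ± 0.39, but 93663_r_at stood at 0.23 ± 0.35 and 0.39 ± 0.41 without passing. The probe sets of Zap70 thus did not move alike, and the cause was not tested.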
